A study of Homo sapiens with 4 samples.

Results

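The genes described here are 8 of the 30843 genes in the deposited table. They are the metallocarboxypeptidase genes *CPA4*, *CPM*, *CPE*, *CPD* and *CPQ*, the serine carboxypeptidase genes *SCPEP1* and *CPVL*, and *LXN*, which encodes the carboxypeptidase inhibitor latexin. They were found by gene symbol. All 8 reached 10 normalized counts in 2 or more samples, the minimum for a test, as did 17632 genes in all. *CPA4* was chosen by its measured rise between the groups, as the largest among well expressed genes. It averaged 114 normalized counts over all 4 samples, but 51.5 in the group where it was low. The others were listed as its relatives with its rise known. The differences of all 8 between the groups are therefore a description, with no test.

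RNA was sequenced from A549 cells, an established human lung adenocarcinoma line of epithelial type with the genotype label WT, after 4 days on plastic well plates. One group was cultured with respiratory motion (RM+), that is with cycles of lowered and released air pressure around the plate, and one without it (RM-). Each group had 2 samples, and the labels give replicate 1 of both groups as batch 1 and replicate 2 as batch 2. Pairs of values below are always in the order replicate 1, replicate 2. The study states that its key 2D experiments were repeated independently, but the sources do not say what a batch of these libraries was, so p-values cover the spread between these samples alone, part of which may be technical.

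The libraries held 18754356 to 20412283 reads in genes, and replicates of 1 group differed by more than counting error. Genes known to be high in this line were abundant, with *KRT8* at 52561 to 61629 and *ALDH1A1* at 127727 to 143579 normalized counts, while *EPCAM* was low, at 45.4 to 67.9. Of the alveolar type 2 markers, *SFTPC*, *SFTPB* and *NKX2-1* stayed at or below 2.87 and *NAPSA* stood at 13.1 to 24.2. The leucocyte gene *PTPRC* did not exceed 2.87 and *LYZ* 5.05, but *CD14* from the same list had 181 to 231. Of the fibroblast markers, *COL1A1* had 130.2 to 154, while *COL3A1* and *PDGFRB* did not exceed 3.82.

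Carboxypeptidases remove single amino acids from the C-terminal end of peptides and proteins. Most of the metalloenzymes discussed here hold zinc in the active site. The A-type enzymes, such as carboxypeptidase A4, take hydrophobic residues, while those encoded by *CPD*, *CPE* and *CPM* take arginine and lysine. They trim prohormones and growth factors after a convertase has cut them, and at the cell surface they change the activity of kinins and other peptides. Serine carboxypeptidases use a serine in place of zinc and work mainly in lysosomes. Latexin binds and inhibits A-type and B-type metallocarboxypeptidases.

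The bases upstream of *CPA4* and *CPM* are shown because these genes had the largest differences between the groups among the 8. Each stretch is the 250 bases before the RefSeq start on GRCh38.p14, 5′ to 3′ along the gene, chr7:130292911-130293160 on the plus strand for *CPA4* and chr12:68933200-68933449 on the minus strand for *CPM*. Capitals mark matches on either strand to TATAAA (the TATA box), to GGGCGG (the GC box), to TGANTCA (the core of the AP-1 site), to GGAATG (the core of the TEAD site), to ACGTG (the core of the hypoxia response element) and to the p53 half-site.
CPA4: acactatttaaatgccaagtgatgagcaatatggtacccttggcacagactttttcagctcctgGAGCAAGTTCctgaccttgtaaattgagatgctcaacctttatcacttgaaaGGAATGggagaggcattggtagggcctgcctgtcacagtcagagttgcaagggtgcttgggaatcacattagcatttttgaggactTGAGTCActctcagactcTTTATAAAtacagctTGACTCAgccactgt
CPM: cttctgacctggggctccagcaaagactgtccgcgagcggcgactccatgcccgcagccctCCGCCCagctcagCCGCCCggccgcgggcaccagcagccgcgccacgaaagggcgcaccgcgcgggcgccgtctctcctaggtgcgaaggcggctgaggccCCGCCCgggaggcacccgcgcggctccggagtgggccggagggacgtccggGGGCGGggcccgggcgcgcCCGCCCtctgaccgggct
The *CPA4* stretch held the AP-1 core at 48 and at 15 bases before the start, where 6.57% of 35116 promoter stretches of this length held at least 1 match. It held the TATA box word at 28 bases, overlapping its reverse complement at 30 bases (10.7% of promoters). The TEAD core stood at 134 bases (11.9%) and a p53 half-site at 186 bases (5.57%). It held neither the GC box (42.6%) nor the hypoxia response core (18.5%). The *CPM* stretch held the GC box 5 times and none of the other words. G and C made up 44.4% of the *CPA4* stretch and 78.8% of the *CPM* stretch, against a median of 58% over all promoter stretches. These are matches of letters, and no binding was measured here. The end of the *CPA4* stretch and the whole *CPM* stretch lie inside the gene bodies of the table, which start further upstream. This end of the *CPA4* stretch holds the AP-1 core at 15 bases and most of the TATA box word at 28 bases.

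*CPA4* encodes carboxypeptidase A4, a secreted enzyme made as a zymogen and first described as a gene induced by inhibitors of histone deacetylases (ENSG00000128510, GRCh38, chromosome 7 from 130293134 to 130324180, plus strand, 12 transcripts in GENCODE v29). It had 49.4 and 53.5 normalized counts without RM and 139 and 213 with it. Both RM+ samples lay above both RM- samples, and the gap between the RM+ replicates was much wider than that between the RM- replicates. The group means were 176 ± 52.2 and 51.5 ± 2.90 (SD, n = 2), a ratio of 3.42. As this is bulk RNA, more cells with *CPA4* RNA and more of it per cell cannot be told apart.

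These values rest on 49 and 56 reads in the RM- libraries and 137 and 211 in the RM+ libraries. The exact 95% Poisson intervals, which cover counting error only, were 36.3 to 64.8 and 42.3 to 72.7 reads without RM, and 115 to 162 and 183 to 241 reads with it. The RM- intervals overlapped each other, and the RM+ intervals did not. On log2(normalized count + 1), the fold change of RM+ over RM- was 1.72 (standard error 0.22). Within batch 1 it was 1.48 and within batch 2 1.97. Leaving out RM+ replicate 2 gave 1.42, and leaving out RM+ replicate 1 gave 2.03.

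Next after *CPA4*, among genes past the adjusted p that averaged 100 normalized counts or more, came *SIK1*, which encodes salt-inducible kinase 1, with 1.46 on the log2 scale. *ERVE-5* (1.36), *GREB1* (1.33), *GREM1* (1.29) and *GPNMB* (1.23) followed. *CPA4*, with a mean of 51.5 in RM-, reached the minimum of 100 only through its RM+ samples. *GPNMB* was also below 100 in both RM- samples (76.7 and 67.9). *SIK1* had 132 and 91.8 normalized counts without RM and 463 and 201 with it. Its RM+ replicates thus stood in the opposite order to those of *CPA4*.

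**Figure D1:**
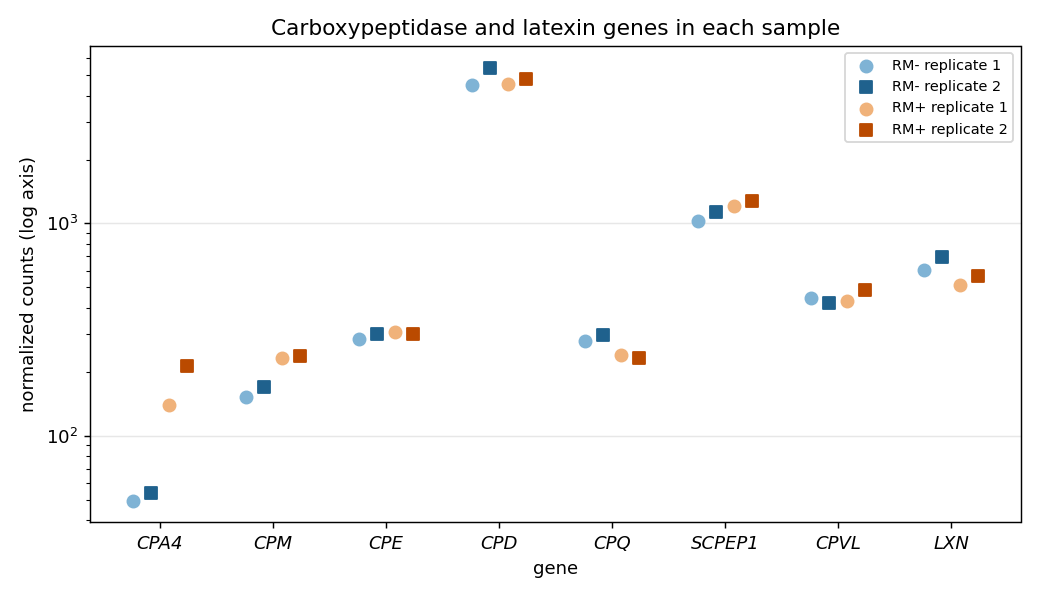
Normalized counts (log axis) of the 8 genes in each of the 4 samples, with RM- in blue, RM+ in orange, circles for replicate 1 and squares for replicate 2. *CPA4* runs from 49.4 to 213 with the RM+ points clear of the RM- points, while the groups of *CPE*, *CPD* and *CPVL* overlap.

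*CPM* encodes carboxypeptidase M, a surface enzyme held by a lipid anchor that takes C-terminal arginine or lysine from kinins and EGF (ENSG00000135678, chromosome 12 from 68842197 to 68971570, minus strand). It had 152 and 170.2 normalized counts without RM and 233 and 236 with it. Both RM+ samples lay above both RM- samples, and the gap between the groups was wider than that between replicates. The log2 fold change was 0.54 (standard error 0.15), with 0.61 in batch 1 and 0.47 in batch 2.

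At its 3′ end *CPM* overlaps *MDM2*, the gene of the ubiquitin ligase that restrains p53 and is itself a p53 target, by 3348 bases on the opposite strand. Of these, 133 bases are exon of both genes in GENCODE v29, or 1.77% of the *CPM* exons. *MDM2* had 1563 and 1704 normalized counts without RM and 2339 and 2491 with it, and its rise of 0.56 passed (adjusted p = 0.00242, limma with Benjamini-Hochberg adjustment). *CPM* amounted to 9.75% and 9.98% of the *MDM2* value without RM and to 9.95% and 9.49% with it. The ratio of the *CPM* value to the *MDM2* value thus varied little over the 4 samples, with RM+ to RM- ratios of 1.45 for *CPM* and 1.48 for *MDM2*.

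A non-coding gene, ENSG00000257181, lies at the same end on the strand of *CPM*, from 68841288 to 68843237. It overlaps the *CPM* gene body of the table by 1041 bases, but shares 0 exon bases with *CPM* in GENCODE v29. It had 299.6 and 347 normalized counts without RM and 510.1 and 519 with it (0.67 on the log2 scale, adjusted p = 0.00523 in limma), and *CPM* stood at 45.5% to 50.8% of it. The library kit keeps the strand, but whether the counting used it is not given in the sources. Without strand, reads from exons that overlap cannot be told apart, and the share of *MDM2* reads in the *CPM* value was not tested. These partner genes were picked for their overlap with *CPM*.

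**Figure D2:**
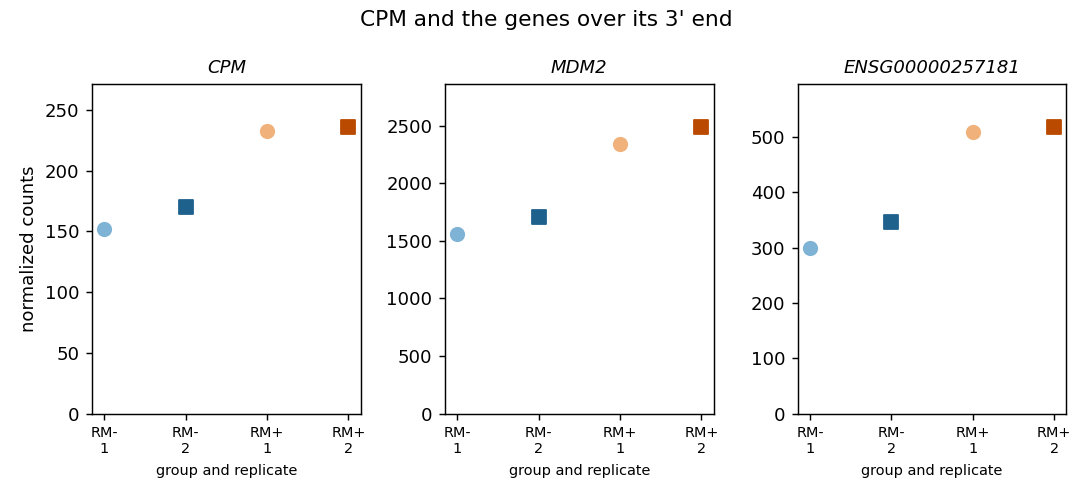
Normalized counts (linear axes from 0) of *CPM*, *MDM2* and ENSG00000257181 in each of the 4 samples, with RM- in blue and RM+ in orange. All 3 genes are higher in both RM+ samples, and *CPM* stays between 9.49% and 9.98% of *MDM2*.

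Carboxypeptidase D of the trans-Golgi network and carboxypeptidase E of secretory granules trim C-terminal arginine and lysine from precursors inside the cell. *CPD* (chromosome 17 from 30378927 to 30469989) took the most reads of the 8 genes and had 4502 and 5424 normalized counts without RM and 4524 and 4782 with it. The groups overlapped, and the RM- replicates lay further from each other than the group means did. Its log2 fold change was -0.09 (standard error 0.09), and it turned to 0.05 without RM- replicate 2. *CPE* (chromosome 4 from 165361194 to 165498547) had 285 and 301 normalized counts without RM and 307 and 301 with it. Its groups overlapped as well, and they differed by 0.05 on the log2 scale (standard error 0.13).

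*CPQ* encodes a secreted metallopeptidase of another family, which splits dipeptides (chromosome 8 from 96645242 to 97149654). It had 278 and 298 normalized counts without RM and 239.8 and 231 with it. Both RM+ samples lay below both RM- samples, a log2 fold change of -0.29 (standard error 0.13), with -0.21 in batch 1 and -0.37 in batch 2.

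The products of *SCPEP1* and *CPVL* are serine carboxypeptidases, the first known as retinoid-inducible and the other from macrophages. *SCPEP1* (chromosome 17 from 56978129 to 57006768) had 1030.0 and 1136 normalized counts without RM and 1209 and 1277 with it. Both RM+ samples lay above both RM- samples, but the nearest samples of the groups were closer than the RM- replicates were to each other. The log2 fold change was 0.20 (standard error 0.09). *CPVL* (chromosome 7 from 28995235 to 29195451) had 443 and 421 normalized counts without RM and 433 and 485 with it. Its groups overlapped, and the log2 fold change was 0.09 (standard error 0.11), with -0.03 in batch 1 and 0.20 in batch 2.

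*LXN*, the latexin gene (chromosome 3 from 158645822 to 158672648, minus strand), had 606 and 691 normalized counts without RM and 512 and 567 with it. Both RM+ samples lay below both RM- samples, and batch 2 was the higher in each group. The difference was -0.26 on the log2 scale (standard error 0.11), with -0.24 in batch 1 and -0.28 in batch 2. The gene lies wholly inside *GFM1*, which encodes a mitochondrial elongation factor on the other strand, and the exons of both share 45 bases (2.99% of the *LXN* exons). *GFM1* had 1901 and 2082 normalized counts without RM and 2005 and 2157 with it. *LXN* was 31.9% and 33.2% of it without RM and 25.5% and 26.3% with it, so that this ratio, unlike that of *CPM* to *MDM2*, was lower in both RM+ samples.

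Of the 8 genes, 3 had both RM+ samples above both RM- samples, 2 had both below, and 3 overlapped. Groups did not overlap, in either direction, for 44.4% of all genes tested. At an adjusted p under 0.05 in limma, 1 of the 8 was higher with RM (*CPA4*) and 0 were lower, where 1.46% and 0.794% of all genes tested were. With the batch as a replicate block, 2 were higher (*CPA4* and *CPM*) and 0 lower, where 5.1% and 4.63% of all genes were. The rule used this contrast, so nothing is read from these counts. The median log2 fold change was 0.07 over the 8 genes and 0.05 without *CPA4*, against -0.0029 over all genes tested.

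**Figure D3:**
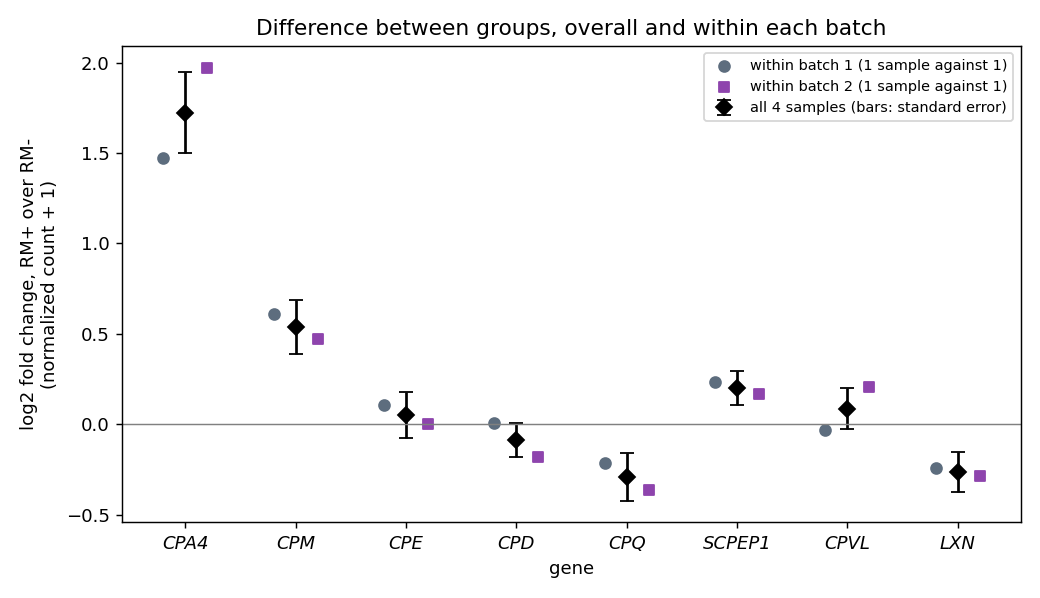
Log2 fold change of each gene, RM+ over RM-, over all 4 samples (diamonds, with bars for the standard error from limma) and within batch 1 (circles) and batch 2 (squares), each 1 sample against 1. *CPA4* stands at 1.48 and 1.97 in the batches and *CPM* at 0.61 and 0.47. *CPD*, *CPE* and *CPVL* lie on different sides of 0 in the batches, *CPE* only just, at 0.10 and -0.0011.

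The batch difference was not used to choose the genes, and it was tested in limma with the group as a further term. None of the 8 differed between the batches at an adjusted p under 0.05 (range 0.156 to 0.968), where 2.09% of all genes tested did, and 1, *CPD*, had an unadjusted p under 0.05 (13.4% of all genes tested). Its batch 2 value exceeded that of batch 1 by 0.17 on the log2 scale (standard error 0.06). All 8 had a batch difference above 0, that is higher in batch 2, as had 54.0% of all genes tested. The largest was 0.36 for *CPA4* (standard error 0.20, adjusted p = 0.431 in limma). The fit leaves 1 residual degree of freedom, so its p-values rest on a spread pooled over genes.

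Levels of different genes can be set side by side only per length, here as normalized counts per kb of the union of all annotated exons. This union exceeds the longest transcript by unlike amounts, with 3457 against 1947 bases for *CPQ* and 2958 against 2421 for *CPE*. For *SCPEP1* it has 3853 against 1942 bases. The order of genes below holds for this length only, and other lengths were not tested. In the RM- group *LXN* stood highest with 431 ± 39.9 per kb, before *CPD* with 396 ± 52.0 and *SCPEP1* with 281 ± 19.4 (SD, n = 2). The samples of *LXN* and *CPD* overlapped in both groups, and in RM+ the means stood in the other order, at 359 ± 26.0 and 371 ± 14.6 per kb (SD, n = 2). *CPVL* (129 per kb), *CPE* (99.2) and *CPQ* (83.4) came next in RM-, each apart from its neighbours in the order by this length. *CPM* with 21.4 ± 1.67 and *CPA4* with 13.0 ± 0.733 per kb were lowest (SD, n = 2). In the RM+ group *CPA4* reached 44.5 ± 13.2 and *CPM* 31.1 ± 0.336 per kb (SD, n = 2), and both *CPA4* samples lay above both *CPM* samples. Of the summed level per kb of the 8 genes, *CPA4* held 0.894% in RM- and 3.10% in RM+. The inhibitor gene *LXN* remained well above it per kb in RM+ replicates 1 and 2, with 340.5 against 35.2 and 377 against 53.8.

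**Figure D4:**
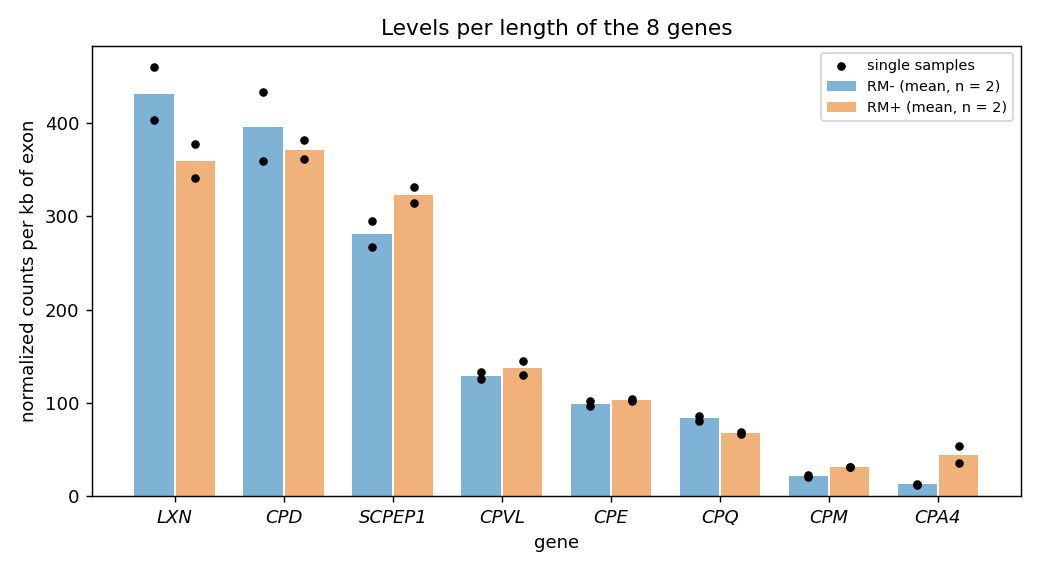
Normalized counts per kb of exon (GENCODE v29 exon union) for the 8 genes, with bars from 0 for the group mean and points for single samples. *LXN*, *CPD* and *SCPEP1* stand between 267 and 459.5, and *CPM* and *CPA4* between 12.5 and 53.8.

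*CPA4* sits in a cluster of carboxypeptidase A genes near the imprinted gene *MEST*. Of 23 other genes of the table within 500 kb, 13 could be tested. None was higher or lower at an adjusted p under 0.05 in limma (smallest 0.264), and 1, *TMEM209* (0.23 on the log2 scale), had an unadjusted p under 0.05, as had 14.5% of all genes tested. With the replicate block *TMEM209* was higher (adjusted p = 0.0495 in limma). The neighbours' log2 fold changes ran from -0.15 to 0.32 with a median of 0.10. *MEST* had 1038 and 1166 normalized counts without RM and 1123 and 1253 with it, with overlapping groups. *CEP41*, a centrosomal gene, had a log2 fold change of 0.12, and *COPG2*, a coat protein gene, one of -0.15. The related gene *CPA5*, also in this cluster, did not exceed 2.02 normalized counts.

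**Figure D5:**
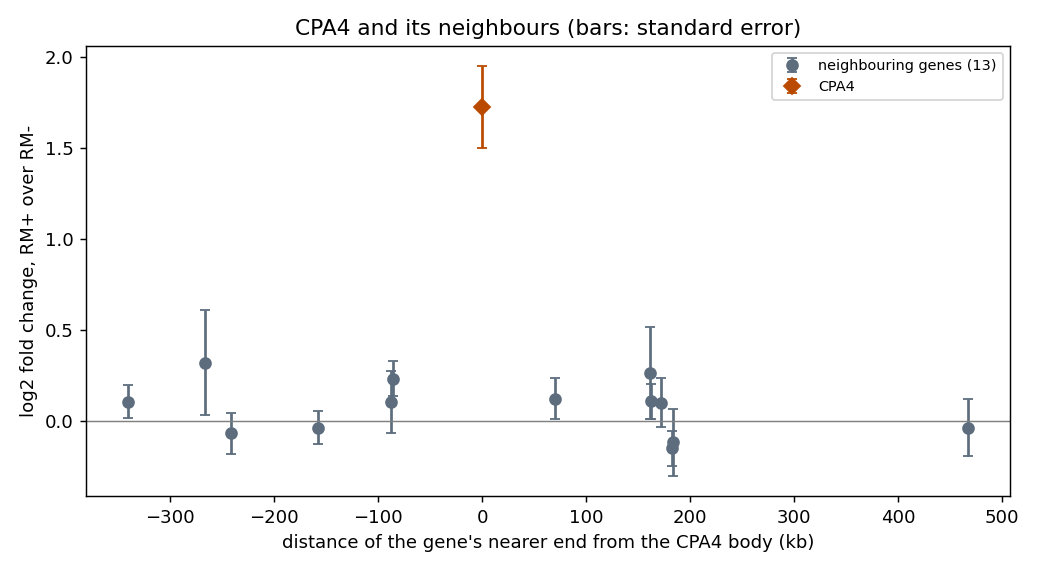
Log2 fold change, RM+ over RM-, against the distance in kb from the *CPA4* gene body, for *CPA4* and the 13 tested genes within 500 kb, with bars for the standard error from limma. *CPA4* stands at 1.72 and the others between -0.15 and 0.32.

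Over the 4 samples, the genes most like *CPA4* among 12100 averaging 100 normalized counts or more were *USP37*, *RDH11*, *S100A4*, *AGAP1* and *STS*, with Pearson correlations of 0.9995 to 0.9998 on the log2 scale. All 5 stood in the same order of samples as *CPA4*, but their ratios of RM+ to RM- were only 1.12 to 1.46. *STS*, which encodes steroid sulfatase, had the largest of these, with 403 and 419 normalized counts without RM and 564 and 639 with it. Among the 8 genes, the correlation with *CPA4* was 0.96 for *CPM*, 0.92 for *SCPEP1* and -0.95 for *CPQ*. With 4 points in 2 groups these are descriptions only.

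The other carboxypeptidases, like the gene lists that follow, were listed for their function with earlier results of these data known. The list of 31 other carboxypeptidase genes also takes in genes of relatives and partners of these enzymes. Of the 31, 22 were in the table and 13 could be tested. Those outside the table, such as *CPA1* and *CPB1*, were not analysed here. In limma 1 was higher and 0 were lower, where 1.46% and 0.794% of all genes tested were. Another 12 missed the threshold. Of the 13, 2 had an unadjusted p under 0.05 (14.5% of all genes), and the median log2 fold change was -0.01. The higher one was *CTSA*, which encodes the lysosomal carboxypeptidase cathepsin A, with 5013 and 4718 normalized counts without RM and 6226 and 6078 with it. Both RM+ samples were above both RM- samples, by 0.34 on the log2 scale (adjusted p = 0.0425 in limma). The call was lost when RM- replicate 2, RM+ replicate 1 or RM+ replicate 2 was left out (adjusted p of 0.187, 0.140 and 0.103 in limma).

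*CTSZ*, a lysosomal cysteine carboxypeptidase gene, had a log2 fold change of 0.01, and *PRCP*, whose product cuts after proline, had -0.18. Among genes of enzymes that trim the tails of tubulin, *AGBL5* ranged from 1537 to 1884 and *AGTPBP1* from 479.9 to 490.3 normalized counts. Their log2 fold changes were -0.13 and -0.0013, beside -0.55 for *AGBL3* and -0.01 for *VASH1*. None of these 6 genes passed (smallest adjusted p = 0.355 in limma). Of 9 genes too low to test, 8 did not exceed 3.03 normalized counts in any sample, *CPA6* and *CPO* among them.

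Convertases make the cuts that *CPD* and *CPE* products then trim. None of 11 tested convertase and partner genes was higher or lower in limma, 3 had an unadjusted p under 0.05 (14.5% of all genes), and the median log2 fold change was 0.07. The site-1 protease gene *MBTPS1* ranged from 3137 to 3257, *QPCT*, which closes N-terminal glutamine into a ring, from 1850.2 to 2128, and the amidating enzyme gene *PAM* from 1878 to 2095 normalized counts. With the replicate block *PCSK1N*, a convertase inhibitor gene named after its values were seen, was higher (0.34 on the log2 scale, adjusted p = 0.00786 in limma).

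Among 12 tested genes of substrates and receptors, 1 rose and 3 fell, where 1.46% and 0.794% of all genes tested did. The other 8 missed the threshold. This list was set with earlier results of these data known, so its counts are a description only. Of the 12, 5 had an unadjusted p under 0.05 in limma (14.5% of all genes), and the median log2 fold change was -0.13. *NTS*, the precursor gene of neurotensin, a peptide that carboxypeptidase A4 cleaves in vitro, had 228 and 302 normalized counts without RM and 121 and 125 with it. Both RM+ samples lay below both RM- samples (-1.09 on the log2 scale, adjusted p = 0.00222 in limma), opposite to *CPA4*. *CHGB*, for chromogranin B of secretory granules, had 913 and 1057 normalized counts without RM and 630.0 and 619 with it (-0.65, adjusted p = 0.00248).

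*C5* encodes a complement protein whose fragment C5a is weakened when a carboxypeptidase removes its last arginine. It had 1361 and 1649 normalized counts without RM and 1156 and 1044 with it (-0.45 on the log2 scale, adjusted p = 0.0289 in limma), and the call was lost without RM- replicate 2 (adjusted p = 0.191) or RM+ replicate 2 (adjusted p = 0.0851). The higher gene was *AGT*, for angiotensinogen, with 319 and 265 normalized counts without RM and 453 and 474 with it (0.67, adjusted p = 0.00815). The sorting receptor gene *SORT1*, whose product binds neurotensin, had 0.18, the bradykinin receptor gene *BDKRB2* -0.19 and the complement gene *C3* -0.34 on the log2 scale, none of which passed. With the replicate block *C3* was lower (adjusted p = 0.0272 in limma).

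Latexin shares its fold with the cystatins and with the product of *RARRES1*, a retinoid-induced gene. *RARRES1* had 285 and 295 normalized counts without RM and 235 and 240.3 with it, a log2 fold change of -0.29 (adjusted p = 0.316 in limma). None of 5 tested genes of this fold was higher or lower, 4 had an unadjusted p under 0.05 (14.5% of all genes), and the median was 0.16. *CST3*, for cystatin C, had 0.16 and *CSTB*, for cystatin B, 0.25. With the replicate block *CSTB* (adjusted p = 0.00427) and *CSTA* (1.32, adjusted p = 0.0381) were higher and *CST1* (-0.99, adjusted p = 0.00378) lower in limma. Of all genes tested, 5.1% were higher and 4.63% lower in that fit. *CSTA* and *CST1* were named after their values were seen. The level of *CSTA* was low, with 13.1 and 7.65 normalized counts without RM and 23.4 and 30.3 with it. Its RM- replicate 2 was thus below 10.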

How the data were processed

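A549 samples from 2D culture on day 4, 2 per group, were sequenced as poly(A) RNA, and groups and batches came from the labels. According to the submitters' processing notes, the tools were HISAT2 2.1.0, featureCounts 1.6.3, DESeq2 1.24.0, Trimmomatic 0.38 and FastQC 0.11.7, with GRCh38. The annotation release and strand setting are not stated there. The deposited signal of each sample is its count per gene divided by a size factor. Every value (100% within 1e-06) was a whole multiple of the smallest one in its column, taken as 1 read. The deposited table also holds the authors' own comparison, a log2 fold change, p-value and score columns (mean, standard error, statistic), none of which was used. Other samples had 0 columns.

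Genes reaching 10 normalized counts in 2 samples were compared in limma 3.58.1 (R 4.3.3) on log2(normalized count + 1) with a trend, two-sided, and p-values were adjusted by Benjamini-Hochberg over 17632 genes. The fit had 2 residual degrees of freedom and borrowed 14.8. Replicate numbers pair the samples because the labels give them as batches (correlation of deviations 0.168 over 17632 genes). Over the 10289 genes averaging more than 200 normalized counts the correlation was 0.314. The fit with this replicate block, leaving out each sample, another scaling, pseudocount or filter were alternatives. Exon lengths came from GENCODE v29 and upstream sequences from RefSeq (GRCh38.p14). The p53 half-site was searched by its consensus. The 8 genes and all lists were chosen with earlier results of these data known. Named were the 8 genes, list genes past an adjusted p of 0.05 and up to 3 others of highest mean, neighbours, the 5 next largest rises and the 5 genes most like *CPA4*. The fit was tested on simulated data. The result of 1 list gene is not reported here.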

Additional observations from a re-analysis of the deposited data

How the results depend on the processing

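The log2 fold change of *CPA4* ranged from 1.42 to 2.03 over 9 alternatives, and *CPD* changed sign in 1 of them. With no filter on low values the fit covered 30843 genes. In it 0 of the 8 genes, 0 other carboxypeptidases and 0 substrates and receptors were higher, and 0 substrates and receptors lower. The log2 fold changes did not move, with 1.72 for *CPA4* and -1.09 for *NTS*. The share of all genes called in this fit is not given here, so these counts show nothing particular to these genes. With the replicate block 2 of the 8 genes, 2 convertases, 2 cystatin-fold genes, 4 other exopeptidases and 1 neighbour of *CPA4* were higher. In the same fit 1 cystatin-fold gene and 1 other exopeptidase were lower. The block fit called 5.1% of all genes tested higher and 4.63% lower, against 1.46% and 0.794% in the main fit. The rule for the 8 genes used this contrast, so nothing is read from their counts in any setting. Leaving out a single replicate gave log2 fold changes of 0.30 to 0.38 for *CTSA* and 0.54 to 0.80 for *AGT*. For *NTS* they ran from -1.29 to -0.88, for *CHGB* from -0.76 to -0.55 and for *C5* from -0.59 to -0.31. Counts of called genes in these fits are not given here. A group left with 1 sample was taken to vary as the other group does. Scaling by the trimmed mean of M-values, a pseudocount of 5, and a minimum of 10 normalized counts in every sample left the counts of called genes as in the main fit. The edgeR and DESeq2 fits listed as alternatives were not run. *CPA4* had 49 to 211 reads per library, and its RM+ replicates differed by more than counting error.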

Other observations

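Of 20 tested genes of other exopeptidases, which cut at the N-terminal end or release short peptides, none was higher or lower in limma, and 5 had an unadjusted p under 0.05, where 14.5% of all genes tested had. The median log2 fold change was 0.08, with 14 genes above 0, as were 49.3% of all genes tested. *TPP1*, for a lysosomal tripeptidyl peptidase, had 3667 and 3697 normalized counts without RM and 4376 and 4484 with it (0.27, adjusted p = 0.113 in limma). *PEPD*, for the enzyme that splits dipeptides ending in proline, had 3353 and 3355 normalized counts without RM and 3831 and 4254 with it (0.27, adjusted p = 0.135). *RNPEP*, for an aminopeptidase that takes basic residues, had -0.04 (adjusted p = 0.906). With the replicate block *TPP1*, *PEPD*, *CTSH* and *LNPEP* were higher and *METAP2* lower, where 5.1% and 4.63% of all genes tested were. Of these, *CTSH*, *LNPEP* and *METAP2* were named after their values were seen.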
